A study of Ovis aries with 12 samples.

Results

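RNA sequencing was used to profile the longissimus, a long muscle of the back, in Suffolk by Texel crossbred sheep at day 42 after birth (D42) and at day 243 (D243). The comparison holds 6 of the series' 12 libraries, 3 at each age, chosen by a number in the sample descriptions (X314, X319 or X320, as printed there) that recurs once at each age. The other 6 libraries come from fetal muscle at gestation day 85 (G85) and day 133 (G133), and carry other numbers. No label gives a treatment, a genotype or a sex, and none says that a number is an animal, or how the muscle was sampled. Libraries that share a number are called a pair here. All 15743 genes of the deposited table were compared within pairs.

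In skeletal muscle, the number of fibres is largely set before birth. Later growth comes mostly from enlargement of existing fibres, with nuclei added from satellite cells, the resident stem cells of muscle. Contractile and metabolic genes dominate the polyadenylated RNA of mature fibres, and the remaining RNA comes from connective tissue, vessels, fat and blood. In bulk tissue, fewer cells of a type and less RNA per cell cannot be told apart. The table names genes by Ensembl identifier alone, and 0 of the identifiers matched the gene table used here. Genes are therefore described by abundance, direction and history at the fetal ages, with 5 printed by identifier. Neither marker genes nor sequences could be looked up, so the labelled tissue could not be checked against its markers.

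Levels are given as scaled CPM. These are the deposited CPM (reads per 1000000 reads of the library) divided by 1 factor per library, the median over genes of the library's ratio to the geometric mean of all 12. Differences are within-pair differences of log2(scaled CPM + 1), D243 minus D42, which understate the change of low genes. A gene is called when its adjusted p is under 0.05 in limma with the pair number as a block, over all 15743 genes. The scale bears on direction: as deposited, the median gene lay at a log2 difference of -0.20, and on the median-ratio scale at 0.02. Where nothing else is said, values are on the median-ratio scale. The 6 libraries held 10556715 to 21300818 recovered reads, the fewest in D42 of pair X314.

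One library stood apart from the other 5 before any comparison of ages. The D243 library of pair X319 held 51 genes at least 4-fold above all 5 other postnatal libraries on the log2(scaled CPM + 1) scale. The other libraries held 0 or 1 such gene each. At 2-fold, the counts were 148 in that library and 3 to 17 in the others. Root mean square log2 distances at D243 were 0.468 between X314 and X319 and 0.467 between X319 and X320, against 0.31 between X314 and X320. At D42 the 3 distances were 0.315 to 0.32. The main counts are therefore given with and without pair X319.

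On the median-ratio scale, more genes rose than fell between D42 and D243, and most called changes were under 2-fold. A rise was called for 1183 genes, or 7.51% of those tested, and a fall for 626, or 3.98%. The median called rise was 0.65 on the log2 scale, or 1.57-fold, and the median called fall was -0.75. At least 2-fold, 220 genes rose and 124 fell; at least 4-fold, 33 rose and 7 fell. Without pair X319 these counts were 297 and 168 at 2-fold and 44 and 9 at 4-fold. In 1149 of the called rises and 573 of the called falls, the 3 D243 libraries lay wholly beyond the 3 D42 libraries. Over all genes, 19.1% lay wholly higher and 13% wholly lower at D243.

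The balance of rises and falls depended on the scale. On the CPM as deposited, 392 genes (2.49%) were called higher and 1958 (12.4%) lower. All 392 of those rises were among the 1183, all 626 falls were among the 1958, and 0 genes were called in opposite directions. By quantile normalization 670 were higher and 731 lower. Without pair X319 the calls were 1553 higher (9.86%) and 751 lower (4.77%), of which 1036 and 514 were also called with all pairs. The calls were far fewer without pair X314 (51 higher, 31 lower) or pair X320 (40 higher, 16 lower). Each fit that left out 1 pair, also the fit without X319, had 1 residual degree of freedom before moderation. Why their counts differ was not tested.

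The 3 pairs resembled one another unequally. Across 15743 genes, the within-pair differences of X314 and X320 correlated at 0.63 (Pearson). The value was 0.47 for X314 and X319, and 0.44 for X319 and X320. Without the 51 genes these values were 0.63, 0.53 and 0.49. They describe genes within 3 pairs, and genes are not replicates. The root mean square difference was 0.476 in pair X314, 0.53 in pair X319 and 0.452 in pair X320. Changes of at least 2-fold numbered 438 higher and 252 lower in pair X314, 508 and 336 in pair X319, and 324 and 274 in pair X320.

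**Figure D1:**
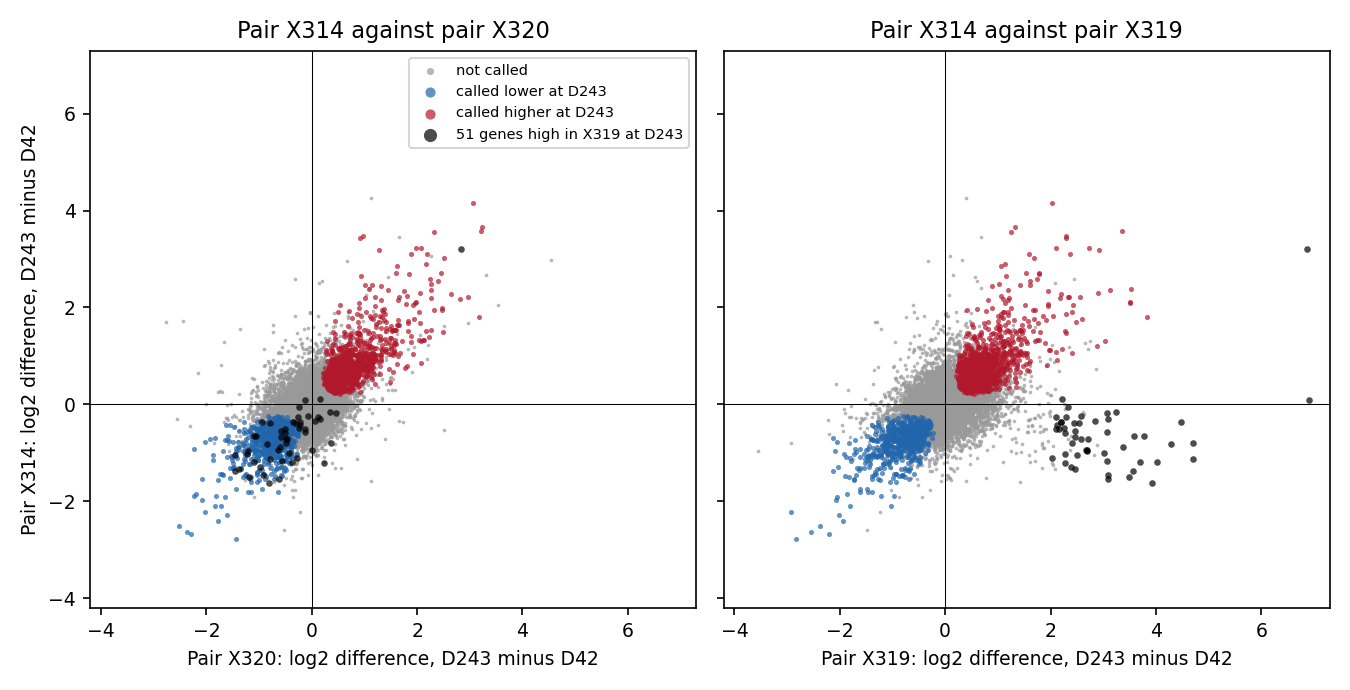
Within-pair log2 differences (D243 minus D42) of all 15743 genes, pair X314 on the vertical axis against pair X320 (left) and pair X319 (right). Red and blue points are genes called higher and lower, grey points are not called, and black points are the 51 genes high in the D243 library of pair X319. The black points sit mostly at or below 0 for X314 and X320 and at 2.03 to 6.91 for X319.

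Most genes with large changes in 2 pairs moved the same way in the pair left out. Of 194 genes at least 2-fold higher in both X314 and X320, 179 were also higher in X319 (92.3%) and 107 by at least 2-fold (55.2%). Among all genes, 50.8% were higher in X319 and 3.23% by at least 2-fold. Of 77 genes at least 2-fold lower in X314 and X320, 69 were lower in X319 and 53 by at least 2-fold. Read in pair X314, 128 of 129 genes chosen as higher and 96 of 99 chosen as lower kept their direction. Read in pair X320, 173 of 179 and 97 of 100 did. Pair X319 thus held the most exceptions in direction, 15 among the higher genes and 8 among the lower. At 2-fold the 3 readings hold the same genes: 107 were at least 2-fold higher in all 3 pairs and 53 at least 2-fold lower. Their shares therefore differ only by the number of genes chosen, and do not rank the pairs. These shares were 82.9%, 55.2% and 59.8% of the higher genes when read in X314, X319 and X320. For the lower genes they were 53.5%, 68.8% and 53%.

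The largest rise among genes averaging at least 10 scaled CPM was that of ENSOARG00000007452, whose transcript was almost undetected at D42. It passed that minimum only through the D243 library of pair X319: without that library its mean over the other 5 was 3.77 scaled CPM, so its choice rests on that library. Its D42 libraries held 2, 1 and 4 reads (pairs X314, X319 and X320), or 0.225, 0.0834 and 0.253 scaled CPM. Its D243 libraries held 124, 2067 and 93 reads, or 10.4, 125.9 and 7.90 scaled CPM. Each pair rose and the groups did not overlap, but pair X319 stood about an order of magnitude above the others at D243. The log2 difference was 4.31 ± 0.777 (moderated SE, 3 pairs, limma adjusted p = 0.0296). The moderated SE of limma also draws on the variance of other genes. The pair differences themselves were 3.22, 6.87 and 2.83 in X314, X319 and X320. Without pair X319 the log2 difference was 3.02 (limma adjusted p = 0.000238). It was called in 13 of 16 alternatives, with adjusted p from 6.06e-05 to 0.0894 and log2 differences from 2.51 (pseudocount of 5) to 7.63 (edgeR); the call was lost with a pseudocount of 5 (0.0711) and without pair X314 (0.0894) or pair X320 (0.0811). Fetal muscle held more of it than D42 muscle: 0.64 to 2.13 scaled CPM at G85 and 3.37 to 4.93 at G133.

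The called rise that took up the most reads was that of ENSOARG00000019316, already an abundant transcript at D42. It stood at 2632, 3435 and 2807 scaled CPM at D42 in pairs X314, X319 and X320, and at 8667, 6915 and 9981 at D243. Every pair rose, and the lowest D243 library exceeded the highest D42 library; the smallest rise was in pair X319. The log2 difference was 1.52 ± 0.223 (moderated SE, 3 pairs, limma adjusted p = 0.0199). The call held in 14 of 16 alternatives and was lost without pair X314 (adjusted p = 0.112) or pair X320 (0.084); over the 16 it ran from 3.78e-12 to 0.112. In fetal muscle its level was 593 to 771 scaled CPM at G85 and 893, 2112 and 2132 at G133.

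ENSOARG00000001626 had the largest fall. Its level was 94.5, 51.3 and 94.6 scaled CPM at D42 and 14.4, 7.92 and 17.5 at D243 in pairs X314, X319 and X320. Pair X319 was the lowest of the 3 at both ages, while the falls were nearly equal, at -2.63, -2.55 and -2.37 on the log2 scale. The mean difference was -2.52 ± 0.0968 (moderated SE, 3 pairs, limma adjusted p = 0.00464). It was called in all 16 alternatives, with adjusted p from 3e-43 to 0.0333. G85 libraries held 39.5 to 41.7 scaled CPM and G133 libraries 44.4 to 79.7, so D243 lay below every younger library.

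ENSOARG00000019190 gave up the most scaled CPM among called falls. It went from 3337, 2631 and 3114 at D42 to 1880, 1455 and 2342 at D243 in pairs X314, X319 and X320, again without overlap and with pair X319 lowest at both ages. The log2 difference was -0.70 ± 0.152 (moderated SE, 3 pairs, limma adjusted p = 0.0439). This call was narrow: it was lost in 5 of 16 alternatives, over which adjusted p ran from 0.000167 to 0.215. Those were the 2 limma fits without the pair block (0.0641 with 6 libraries, 0.0896 with all 12) and the removal of pair X314 (0.215), X319 (0.0525) or X320 (0.0798). Its fetal levels were 439 to 581 scaled CPM at G85 and 1350 to 2228 at G133, so the highest libraries of any age were those of D42.

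**Figure D2:**
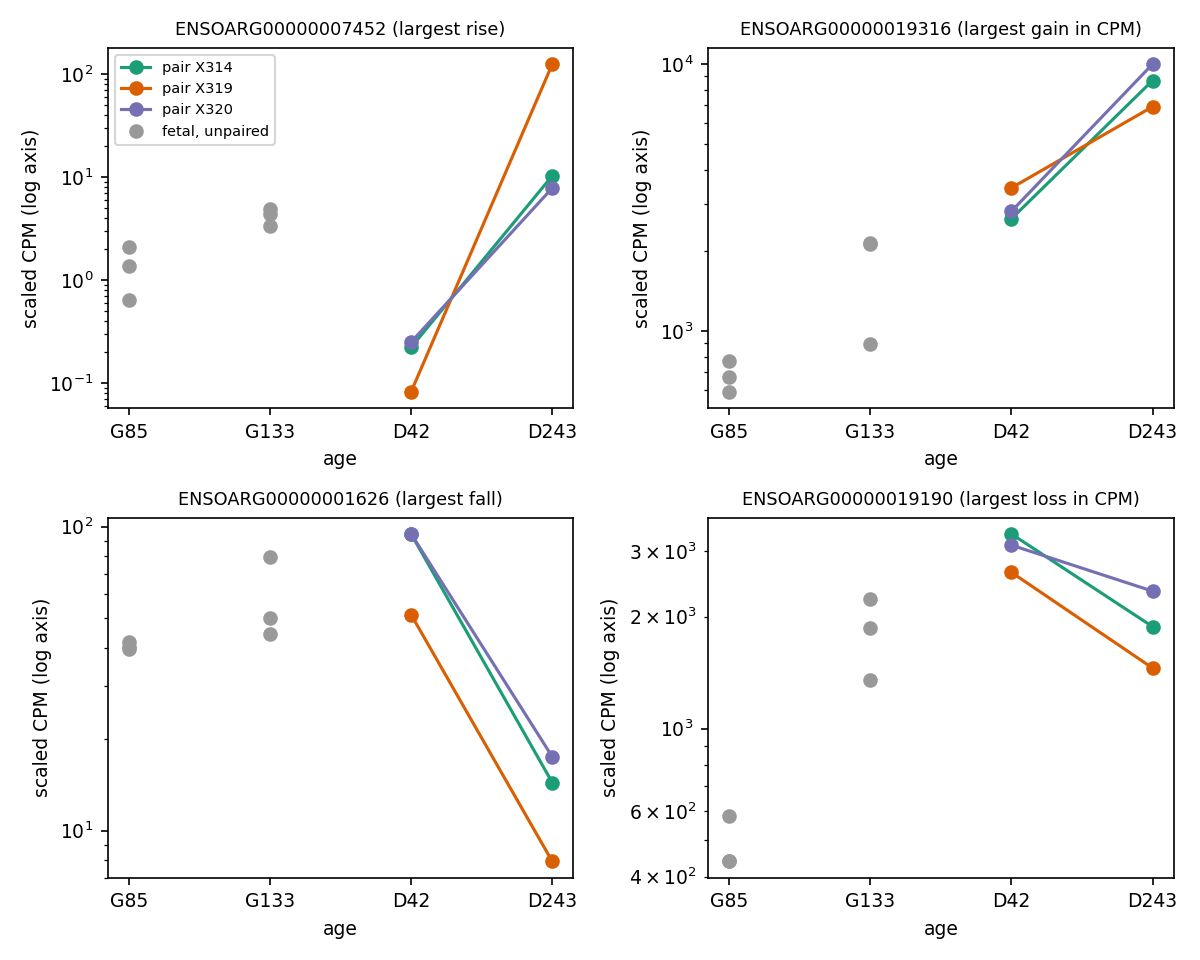
Scaled CPM (log axis) of the 4 genes at each age. Coloured lines join the D42 and D243 libraries of pairs X314, X319 and X320, and grey points are the unpaired fetal libraries. Each gene moves one way in all 3 pairs, and ENSOARG00000007452 reaches 125.9 in pair X319 against 10.4 and 7.90 in the other two.

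The next-largest changes were similarly separated. The 12 largest rises among genes averaging at least 10 scaled CPM spanned log2 differences of 2.42 to 4.31, and the 12 largest falls spanned -1.54 to -2.52. All 24 had D42 and D243 libraries that did not overlap, and all were called as deposited, by edgeR and without pair X319. Among all genes, 19.1% were wholly higher and 13% wholly lower at D243. As deposited, 2.49% of all genes were called higher and 12.4% lower. The rises came from a wide range of abundance, with means of 11.4 to 2537 scaled CPM over the 6 libraries. The falls came from genes of 10.3 to 80.4. The 12 rises all had their highest mean level of the 4 ages at D243, and 11 of the 12 falls had their lowest there. These genes were chosen by size of change among called genes moving one way in all pairs, so their separation and calls add no support. One pair among the 12 rises had nearly equal reads in all 12 libraries (largest log2 ratio 0.0435). Reads of such genes may be shared between copies or overlapping annotations. Both are included in the counts above, though they may not be separate evidence.

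Calls were also counted by abundance. Genes were ranked by mean scaled CPM over the 6 libraries. Of the 450 genes at ranks 51 to 500 (248 to 2583 scaled CPM), 136 rose (30.2%, against 7.51% of all genes). In the same class 20 fell (4.44%, against 3.98%), and the median log2 difference was 0.34. The median was positive in each pair, at 0.27, 0.31 and 0.40 in X314, X319 and X320. As deposited, 60 of them rose and 39 fell, with a median of 0.07 against -0.20 for all genes. By edgeR 101 rose and 21 fell, by DESeq2 140 and 25, and without pair X319 182 and 18. As a share of reads, the class went from 19.4% at D42 to 21.6% at D243.

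Of the 50 most abundant genes, 5 rose (10%, against 7.51% of all genes) and 0 fell (limma; 19 higher and 0 lower at an unadjusted p under 0.05). By edgeR 6 rose and 0 fell, and by DESeq2 20 rose and 0 fell. Without pair X319, 13 rose. As deposited 3 rose and 1 fell. The 5 rises had log2 differences of 0.69 to 1.92 and stood at ranks 22, 24, 32, 47 and 48. The most abundant gene of all 6 libraries held 11.3%, 10.4% and 12.4% of reads at D42 and 10.4%, 10% and 12.6% at D243. Its log2 difference was 0.22 (limma adjusted p = 0.883), and the levels of the 2 ages overlapped.

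Of the next 4500 genes, down to rank 5000 (28.9 to 247 scaled CPM), 679 rose (15.1%) and 177 fell (3.93%), with a median of 0.08. As deposited this reversed to 211 higher and 675 lower, and without pair X319 it was 899 and 234. Of the 10743 genes below rank 5000, 363 rose (3.38%) and 429 fell (3.99%), with a median of -0.01. Over all genes 7.51% rose and 3.98% fell, so the share of falls in both classes was near that of all genes. As deposited 118 genes below rank 5000 rose and 1243 fell, and without pair X319 459 rose and 499 fell. This lowest class held 9.24% of reads at D42 and 7.85% at D243. Complete switches were rare. Only 4 genes were under 1 scaled CPM in all D42 libraries and at 2 or more in all D243 libraries, and 3 showed the opposite; all of them were called. In pairs X314 and X320 alone these counts were 7 and 9.

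**Figure D3:**
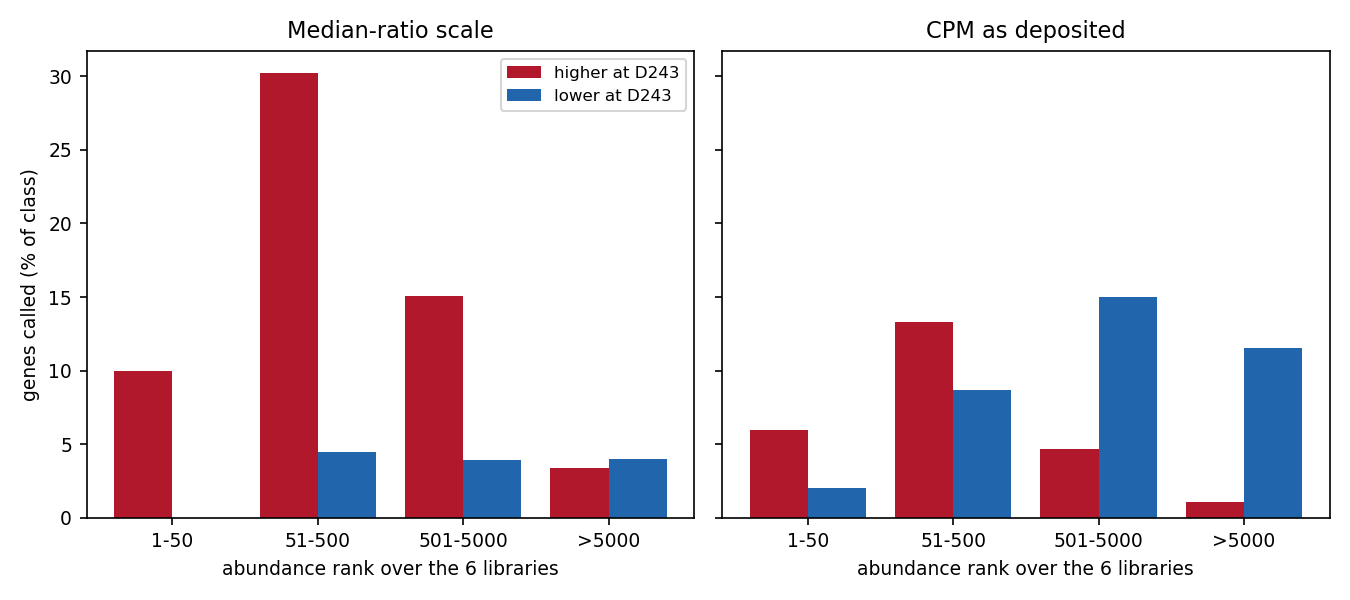
Percentage of genes called higher (red) and lower (blue) at D243 in 4 classes of abundance rank, on the median-ratio scale (left) and on the CPM as deposited (right). At ranks 51 to 500, 30.2% of genes are called higher on the left panel; below rank 500 the deposited CPM give more falls than rises.

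Part of each library's reads changed place between the ages. The share of reads that would have to move to turn the D42 profile into the D243 profile was 13.3% in pair X314, 12.2% in pair X319 and 11.1% in pair X320 (mean 12.2% ± 1.14, SD, n = 3). Between D42 and D243 libraries of different pairs it was 11.4% to 14.3%, with a mean of 12.9%. The true matching gave the lowest mean of the 6 possible matchings, an exact one-sided permutation p of 0.167, which is the smallest that 3 pairs allow. Within an age the share was 6.11% to 7.46% at D42 and 8% to 11% at D243, below every value between ages. As deposited, 4168 genes gained mean CPM and 11574 lost. Only 29 genes held 50% of the gains, while 104 held 50% of the losses. Of the 50 largest gainers, 43 gained in all 3 pairs and 27 were called rises; of the 50 largest losers, 41 lost in all 3 pairs and 13 were called falls (calls on the median-ratio scale). Rises called on the median-ratio scale held 50.7% of these gains in deposited CPM, and falls called on it 14.2% of the losses; with calls as deposited the shares were 36% and 31%.

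The genes called between D42 and D243 were then read in the fetal libraries, which entered that comparison only through the scaling factors. With factors from the 6 postnatal libraries alone, the calls were 928 higher and 652 lower. Between G85 and G133, 11.6% of all genes were called higher and 14.8% lower (limma, 6 fetal libraries). Among the 1183 postnatal rises, 306 were called higher at G133 (25.9%) and 75 lower (6.34%), with a median fetal log2 difference of 0.26 against 0.00 for all genes. Among the 626 postnatal falls, 91 were higher (14.5%) and 165 lower (26.4%), with a median of -0.12. For the genes called without pair X319, 28.8% of rises were higher and 8.76% lower at G133, and 17.2% and 23.7% of falls. The 306 shared rises were 16.7% of all fetal rises, and the 165 shared falls 7.07% of all fetal falls. Of the 220 postnatal rises of at least 2-fold, 70 were called higher at G133 (31.8%) and 18 lower (8.18%). Of the 124 postnatal falls of at least 2-fold, 29 were called in each fetal direction (23.4%).

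As deposited, the direction of the fetal step turned for the rises while their order against all genes did not. Of the 1183 rises 13.9% were higher and 26% lower at G133, against 5.83% and 39.3% of all genes, and the medians were -0.12 and -0.37. Of the 626 falls 6.71% were higher and 46.3% lower, with a median of -0.50. Leaving out single fetal libraries moved 2 of the counts by over 1.5 times. The 75 rises lower at G133 became 35 and 45 without G85 replicates 1 and 2, and 32 and 42 without G133 replicates 2 and 3. The 165 falls lower at G133 became 103 without G85 replicate 1 and 105 without G133 replicate 2.

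**Figure D4:**
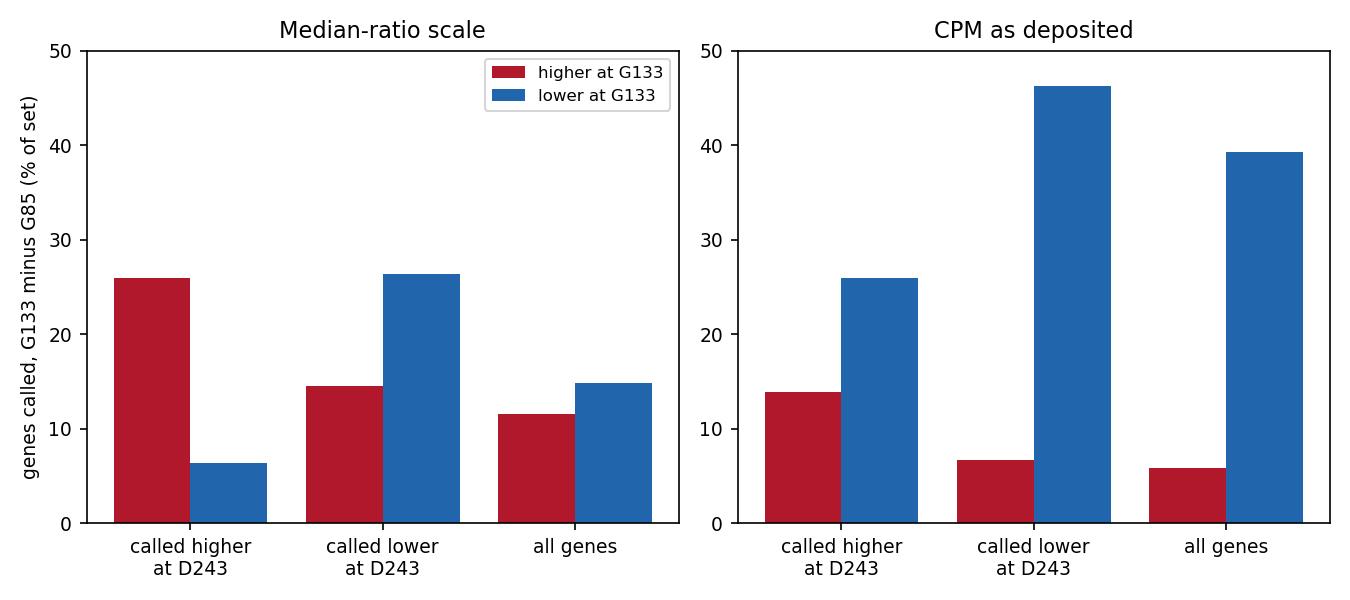
Percentage of genes called higher (red) or lower (blue) at G133 than at G85 among the 1183 postnatal rises, the 626 postnatal falls and all genes, on the median-ratio scale (left) and as deposited (right). On the left, 25.9% of the rises and 11.6% of all genes are higher at G133; on the right, falls outnumber rises in every set.

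Levels of the postnatal calls at all 4 ages are given as a description. For the rises, the median was 23.6 scaled CPM at G85 and 29.9 at G133, then 37.6 at D42, and it reached 64.7 at D243. D243 had the highest mean in 1040 of the 1183 (87.9%, against 31.9% of all genes), G133 in 101 and G85 in 42. The postnatal falls had medians of 19.7, 18.7, 21.7 and 12.3 at the same ages. Their highest mean was at D42 in 294 (47%), at G85 in 256 (40.9%) and at G133 in 76 (12.1%), and their lowest was at D243 in 475 (75.9%, against 29.7% of all genes). The D42 and D243 values in these counts are those that chose the genes, and as deposited the median fetal difference of the rises was negative, as given above.

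The 51 genes that set the D243 library of pair X319 apart rose there and were mostly lower in the same interval in the other pairs. Together they held 477.7, 617.6 and 533.8 CPM as deposited at D42 (pairs X314, X319 and X320). At D243 they held 266.6, 4458 and 290.9. The fetal libraries held 506 to 682. Single genes stood at 10.2 to 378.5 scaled CPM in the outlying library, with a median of 85.5, against medians of 3.26 to 8.67 in the other libraries. All 51 were highest there among the 12 libraries, and 46 were at least 4-fold above every other library, fetal ones included.

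Within pair X319 these genes had log2 differences of 2.03 to 6.91, which is how they were chosen. In pairs X314 and X320, which the choice bears on only as an upper limit, 40 of the 51 were lower at D243 in both (78.4%), against 30.7% of all genes. Their median log2 differences were -0.68 in X314 and -0.48 in X320. In the fit without pair X319, 23 of the 51 were called lower and 1 higher, against 4.77% and 9.86% of all genes. That 1 higher gene is ENSOARG00000007452, also the 1 gene of the 51 called with all 3 pairs. At D42 the library of pair X319 was already the highest of the 3 for 32 of the 51 (62.7%), against 32% of all genes. In the fetal libraries 16 of the 51 were called higher at G133 and 5 lower, against 11.6% and 14.8% of all genes. The identity of the 51 genes, and the part that other cell types or the tissue sample had in them, was not tested.

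**Figure D5:**
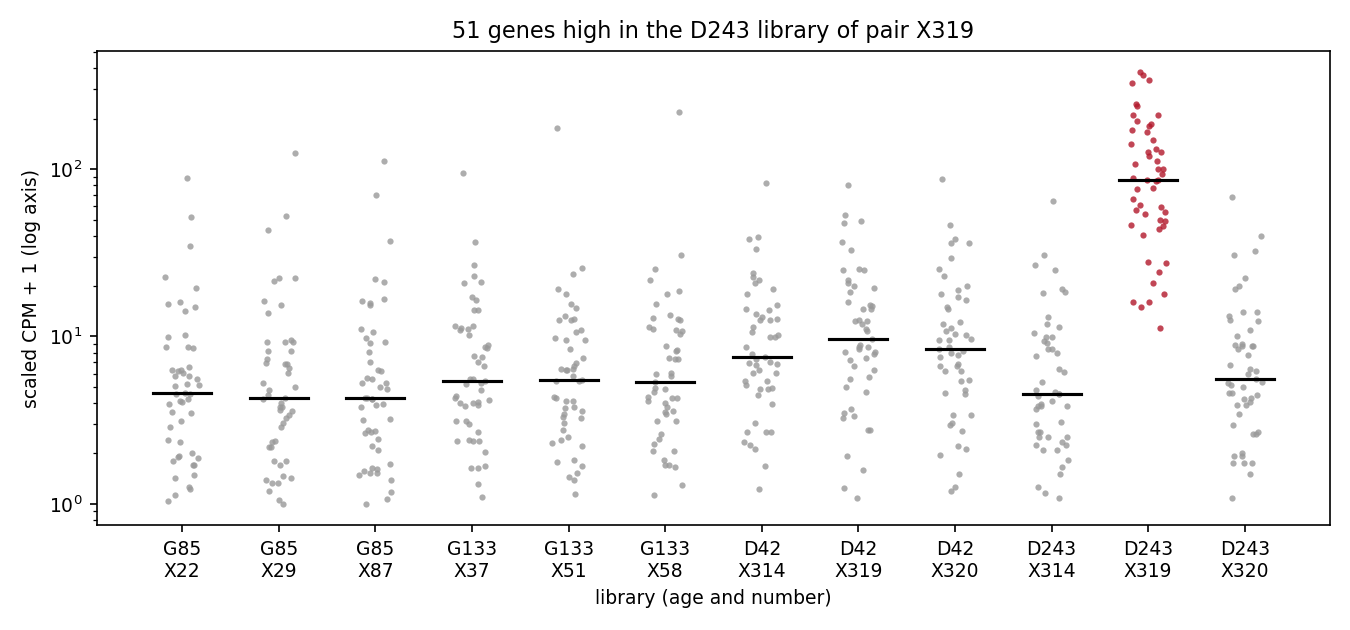
Scaled CPM + 1 (log axis) of the 51 genes in each of the 12 libraries, with black bars at the medians. The D243 library of pair X319 (red) has a median of 85.5 scaled CPM before the 1 is added, and the other libraries 3.26 to 8.67.

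Levels were also compared between pair numbers over both ages. ENSOARG00000014444 was the 1 gene (0.00635% of those tested) called by the limma F test of the pair-number term. It stood at 11.8, 83.8 and 17.9 scaled CPM at D42 in pairs X314, X319 and X320, and at 12, 71.6 and 15.5 at D243. Pair X319 was 4-fold or more above both others at each age. The fetal libraries held 11.1 to 17.9. The adjusted p of the pair term was 0.044, and 1268 genes had an unadjusted p under 0.05. Its age difference was -0.14 ± 0.1 (moderated SE, limma adjusted p = 0.433). It is named because a single gene was called, after its values were seen. The call was absent as deposited, by quantile normalization, with a pseudocount of 5 and without the variance trend, while edgeR called 2 genes.

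A reading that chose genes at D42 alone and looked at D243 was made without a test. At D42, 92 genes had 1 library at least 2-fold above both others. The same number was highest at D243 in 53 of these (57.6%), against 39.5% of all genes, and by at least 2-fold in 16. For 61 genes with 1 library at least 2-fold below both others, the same number was lowest at D243 in 33 (54.1%), against 39.7% of all genes, and by at least 2-fold in 18. By number, the high genes of X314 recurred in 16 of 21 (76.2%, against 39.3% of all genes highest in X314 at D42) and those of X320 in 24 of 39 (61.5% against 42.6%). The low genes of X319 recurred in 14 of 20 (70% against 47.5%) and those of X320 in 11 of 17 (64.7% against 33.5%). The high genes of X319 (13 of 32, 40.6% against 36.3%) and the low genes of X314 (8 of 24, 33.3% against 37.7%) recurred at about the share of all genes.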

How the data were processed

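Total RNA was extracted with Trizol and polyadenylated RNA sequenced, per the labels' protocols. The authors deposited 1 table of CPM for 15743 genes in 12 libraries. Per the submitters' processing notes the tools include edgeR 3.34.1 and featureCounts 2.0.2 (from Subread), RSEM 1.3.3 and Trim Galore 0.6.6, with FastQC 0.11.9; no roles are stated. The genome build, annotation and strandedness stand as not given in the sources used here. Each column sums to 1000000, and 100% of 188642 values above 0 were within 0.01 reads of a whole number of reads.

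The CPM were divided by median-ratio factors (0.656 to 1.54 over the 12 libraries) and log2 transformed with a pseudocount of 1. They were tested in limma 3.58.1 (R 4.3.3) with age and pair number as terms and a mean-variance trend. This fit had 2 residual and 3.65 prior degrees of freedom, and Benjamini-Hochberg adjustment ran over all genes. The fetal step was fitted to the 6 fetal libraries with age alone. Scripts were tested on simulated data. Recovered reads were tested with edgeR 4.0.16 and DESeq2 1.42.0 as alternatives. The recurring numbers are the basis for the pairing. Same-numbered D42 and D243 libraries deviated together from their age means (correlations of 0.189, 0.162 and 0.165). Deviations from an age mean cancel over its libraries, so positive values for the same number force lower ones for different numbers. The values for different numbers (-0.128 to -0.036) are therefore no separate contrast. Separate animals are not stated, so p-values refer to these pairs only. They rest on the spread between the pairs, moderated by the variance of other genes through the prior degrees of freedom. Replicates of an age differed beyond sampling noise (chi-square per degree of freedom of 12.3 to 54.4). The genes named are the largest log2 rise and fall and the largest gain and loss of CPM among called genes averaging at least 10 scaled CPM and moving one way in all 3 pairs. Lists of muscle and other cell type markers were planned and could not be used without symbols. The comparison, its rules and lists were chosen with earlier results of these data known.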

Additional observations from a re-analysis of the deposited data

How the results depend on the processing

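With 3 pairs, calls rest on few degrees of freedom, and most were lost without pair X314 or pair X320. The called genes had similar medians in each pair, but the call uses these same differences and favours genes whose pairs agree. Their median log2 differences in X314, X319 and X320 were 0.66, 0.64 and 0.63 for rises and -0.70, -0.75 and -0.70 for falls. Leaving out each pair in turn gave 56 to 2304 calls, 40 to 1553 higher and 16 to 751 lower, with fewer samples in each fit. Without the replicate block the 6 libraries also gave 1809 calls (1207 higher, 602 lower), 1507 of them shared; all 12 libraries without the block gave 1838, with 1328 shared. The block as a random effect over 12 libraries gave 2637, with 1026 lower. As deposited, 392 were higher and 1958 lower; by quantile normalization 670 were higher. Without the variance trend 1051 were called, 620 higher. An adjusted p under 0.01 left 145 (96 higher, 49 lower) and at least 2-fold left 344 (220 higher, 124 lower). Total calls under the other settings stayed within 1.5 times, including edgeR (877 higher, 653 lower), DESeq2 (915 and 528; 1222 genes had no adjusted p), and factors from the 6 libraries alone (928 and 652). The pair-number term called 0 genes as deposited, by quantile normalization, with a pseudocount of 5 and without the trend (limma; 1060, 1261, 1236 and 1242 at an unadjusted p under 0.05), and 2 by edgeR. Without single pairs it called 0 to 16. For the fetal step as deposited, postnatal rises were higher in 164 and lower in 308, and falls higher in 42 and lower in 290. Without single fetal libraries, these were 204 to 447, 32 to 110, 62 to 93 and 103 to 217. Without the 50 most abundant genes, 13.7% of reads changed place within pairs; without single pairs the value was 11.6% to 12.8%. The cause was not tested. The removal of fetal libraries, factors from 6 libraries, edgeR for the pair term, the 51 genes, the fold, fetal and switch counts without pair X319, the shares of gains and losses as deposited and the readings of a left-out pair were chosen after seeing the data.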
